A study of Mus musculus with 15 samples.

Results

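Dietary fat leaves the intestine in chylomicrons, lipoprotein particles that enterocytes build and secrete into lymph. In the endoplasmic reticulum, monoacylglycerol and fatty acids are joined into triglyceride by the acyltransferases encoded by Mogat2, Dgat1 and Dgat2, and the microsomal triglyceride transfer protein (Mttp) loads this lipid onto apolipoprotein B (Apob), the structural protein of the particle. The small GTPase Sar1b starts the COPII coat under which the young particle leaves the endoplasmic reticulum, and the exchangeable apolipoproteins A-I, A-IV, C-II and C-III (Apoa1, Apoa4, Apoc2 and Apoc3) cover its surface. Apoa4 is among the most lipid-responsive transcripts of the gut, and absorption of fat takes place mainly in the proximal small intestine, so the ileum is normally a minor site of this pathway.

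These 10 genes were taken by name from a list that covers the apolipoproteins, triglyceride synthesis, lipid loading and export. All 10 were listed in every mouse, among 17752 genes listed in any mouse, and all 10 passed the filter on low counts that kept 14386 genes for testing. Intestinal RNA came from 15 female C57BL/6 mice, labelled as 8 weeks old, in 3 groups of 5. Mice were gavaged every 2 days for 10 days with water, with low molecular weight proanthocyanidins from grape (low PAC) or with high molecular weight proanthocyanidins (high PAC), both at 200 mg/kg. Proanthocyanidins are plant polyphenols built as polymers of flavan-3-ols, so each preparation was a mixture of polymers and the preparations differed in mean size. The study's methods describe the third group as a fraction of medium mean degree of polymerisation, place the tissue in the ileum, give the substrain C57BL/6JOlaHsd, give a younger age on arrival than the labels and state that all mice ate one purified control diet. Each mouse gave 1 library.

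Depth was even, with 15963086 to 17903886 expected counts per mouse. The ileal markers Fabp6 (cytosolic bile acid binding protein) and Slc10a2 (the apical bile acid transporter) reached 5680 ± 1320 and 224 ± 101 FPKM in the water mice (mean ± SD, n = 5), so the defining markers of the stated tissue were present, although Lrp2 of the distal ileum list stayed under 0.5 FPKM in every mouse. Of 10 pancreas and liver markers, Pnlip and Amy2b were not listed, Prss2, Cpa1, Ctrb1 and Fgb were under 0.5 FPKM in every mouse, and Alb, Serpina1a, Cela1 and Ttr reached at most 0.54, 0.65, 2.84 and 4.73 FPKM. Ttr was the 1 of the 3 tested that was higher with high PAC at an unadjusted p under 0.05 (log2 fold change 0.65, adjusted p = 0.291, edgeR). Among the libraries, high PAC replicate 3 stood apart, with the lowest summed level of 13 enterocyte markers (5194 FPKM, against 8585 to 11242 in the 10 mice of the water and low PAC groups), and the results below that it touches most are also given without it. FPKM values, fragments scaled by transcript length and by library size, are given per mouse in the order of replicates 1 to 5. Differences are edgeR log2 fold changes from the expected counts with their standard error (SE), with p adjusted over all 14386 genes by the method of Benjamini and Hochberg. Beside them stands the p of an exact permutation test on log2(FPKM + 0.1), two-sided and over every regrouping of the 10 mice compared, which cannot go below 0.0079.

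Apoa1, Apoc3 and Apoa4 lie together with Apoa5 on chromosome 9 within 43.3 kb (46228580 to 46271919, GENCODE annotation of GRCm38). Apoa1 spans 46228580 to 46230466 on the plus strand, Apoc3 spans 46232933 to 46235636 on the minus strand and Apoa4 spans 46240696 to 46243459 on the plus strand. Apob lies on chromosome 12, 7977648 to 8016835, plus strand. The bases just before the annotated starts of Apoa4, Apoa1 and Apob are shown because these are the most different, the most abundant and the structural apolipoprotein of the set. They are from RefSeq on GRCm38.p6, 5′ to 3′ on the strand of the gene, at chr9:46240594-46240695, chr9:46228380-46228579 and chr12:7977427-7977647. Capitals mark a CAAAGTNCA match, the recognition letters of the hepatocyte nuclear factor 4 (HNF4) receptors, or a TATAAA match.
Apoa4: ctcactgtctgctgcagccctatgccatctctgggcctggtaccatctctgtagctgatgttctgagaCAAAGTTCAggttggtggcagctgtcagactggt
Apoa1: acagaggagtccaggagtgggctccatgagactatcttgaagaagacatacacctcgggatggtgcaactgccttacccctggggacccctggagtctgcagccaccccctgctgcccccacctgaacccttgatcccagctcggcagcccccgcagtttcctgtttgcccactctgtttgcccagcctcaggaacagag
Apob: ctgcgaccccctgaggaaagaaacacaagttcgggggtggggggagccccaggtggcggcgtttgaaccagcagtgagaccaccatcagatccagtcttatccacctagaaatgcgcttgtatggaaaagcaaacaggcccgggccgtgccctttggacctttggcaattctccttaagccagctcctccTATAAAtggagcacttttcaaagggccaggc

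Of the 10 genes, 6 had an entry in the RefSeq promoter table, whose windows hold 250 bases before and 50 bases after a start, and both strands were searched for 4 motifs. CAAAGTNCA was found in 1 of the 6 windows, that of Apoa4, where the match begins 34 bases before the end of the printed stretch, which is the GENCODE start, and 182 bases before the RefSeq start, which lies further downstream. The same letters were found in 1.41% of all 32851 windows. TATAAA was found in the Apob window alone (13.6% of all windows) and the cyclic AMP response letters TGACGT in the Mttp window alone (7.51%). The GATA factor letters were searched in 4 forms, with A or T before GATA and A or G after it, and 1 or more of these were found in the Apoa1 and Apoc2 windows (29.8% of all windows). These matches describe letters only and say nothing on binding in these mice.

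In the water mice, the 10 genes covered a wide range of levels per length. Apoa1, the main protein of high density lipoprotein, was the 14th most abundant of the 17752 genes with 4609 ± 765 FPKM (SD, n = 5), and its lowest water mouse lay above the highest value of any other gene of the set. Apoa4 (424 ± 152 FPKM, rank 176), Apob (415 ± 38.9 FPKM, rank 179) and Mttp (367 ± 35.2 FPKM, rank 204) followed with overlapping ranges. The lowest Mttp mouse lay above the highest mouse for Dgat1 (176 ± 24.1 FPKM, rank 402), and from there each gene overlapped its neighbour in the order Dgat1, Mogat2, Sar1b, Apoc3, Dgat2 and Apoc2 (50.5 ± 15.6 FPKM, rank 1516). Together the 10 genes took 1.16% to 1.43% of all counts in the water mice (median 1.33%). The share was 0.94% to 1.25% with low PAC (median 1.06%) and 0.624% to 1.05% with high PAC (median 0.986%), so every high PAC mouse lay below every water mouse. In the water mice Apob took 0.486% to 0.623% of all counts, Apoa1 0.303% to 0.495% and Mttp 0.129% to 0.166%, so these genes weigh most in the sum. Singly, 2 genes (Apob and Mttp) had high PAC mice wholly below the water mice, and sums of other genes were not compared.

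**Figure D1:**
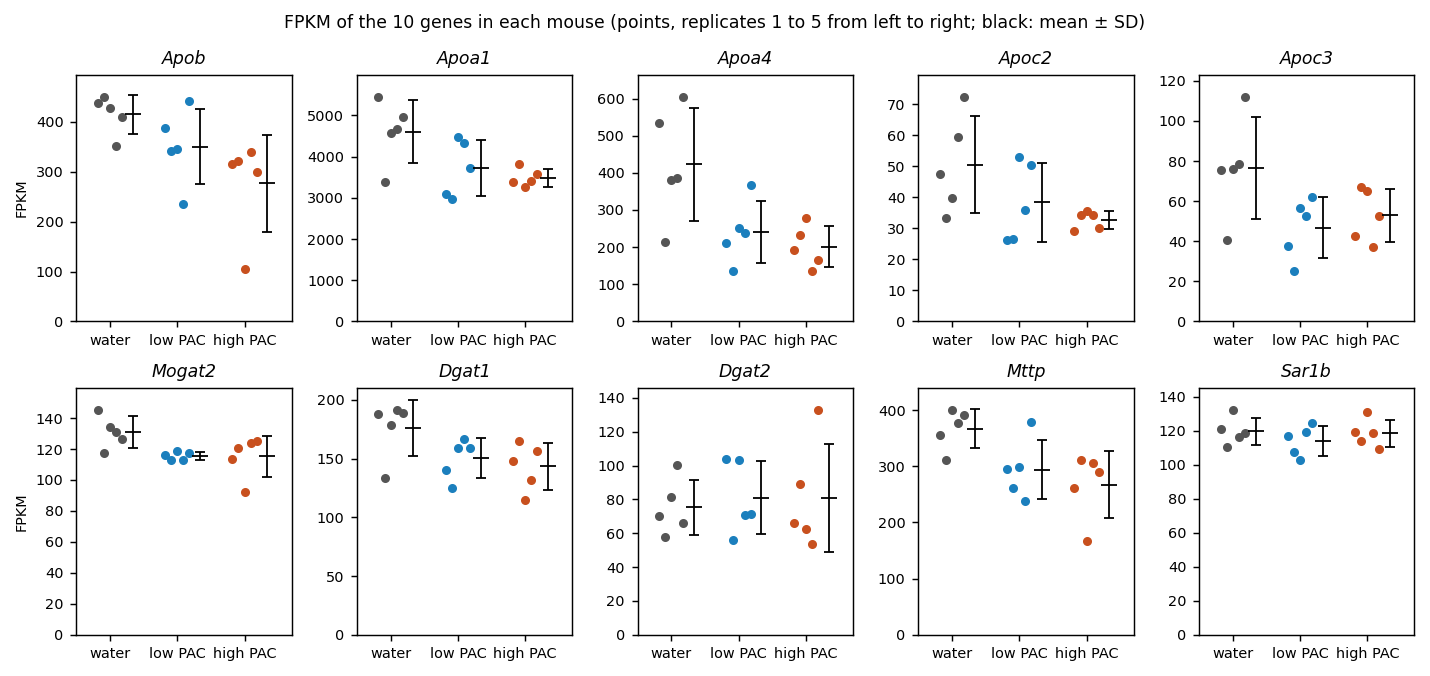
FPKM of each of the 10 genes (linear axes from 0) in the 5 mice of each group, with replicates 1 to 5 from left to right and the mean ± SD in black. Apoa4 averaged 424 FPKM with water and 201 FPKM with high PAC, and with high PAC only Apob and Mttp lay wholly below the water mice. The single low point of Apob (105 FPKM) and Mttp (166 FPKM) is high PAC replicate 3.

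Apoa4, which encodes the intestinal lipid carrier apolipoprotein A-IV, had the largest difference of the set. Its FPKM was 534, 213, 380, 387 and 604 with water, 212, 137, 251.8, 237 and 368 with low PAC, and 193, 232, 278, 137 and 166 with high PAC. Water replicate 2 was at the level of the PAC mice, and the other water mice lay above every high PAC mouse. Apoa4 was 2.25-fold lower with high PAC than with water (log2 fold change -1.17, SE 0.27, 95% interval -1.75 to -0.59), with an unadjusted p of 0.000603 and an adjusted p of 0.162 in edgeR. It ranked 51st of 14386 genes by p and 35th from the lowest log2 fold change. With low PAC it was 1.83-fold lower than with water (log2 fold change -0.87, SE 0.27, adjusted p = 0.976, edgeR). The exact permutation p was 0.0238 with high PAC, where 3 of 5 mice lay below the lowest water mouse, and 0.0635 with low PAC, where 2 of 5 did. Of its 1815 exonic bases, 34.8% are also covered by the antisense gene Gm10680 and 34.9% by Gm47528 on the opposite strand, and neither was listed in any mouse. Whether the counting used strand is not given in the sources used here, so any reads of these partners could not be told apart from Apoa4 reads.

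Apoa1 was 5449, 3383, 4569, 4682 and 4960 FPKM with water, 3104, 2973, 4469, 4324 and 3723 FPKM with low PAC, and 3380, 3811, 3263, 3408 and 3584 FPKM with high PAC. Again water replicate 2 lay among the treated mice, and the high PAC mice were unusually alike, with a coefficient of variation of 6.1% against 16.6% with water. With high PAC the level was 1.41-fold lower than with water (log2 fold change -0.50, SE 0.14, exact permutation p = 0.0317), with an adjusted p of 0.195 in edgeR. With low PAC the log2 fold change was -0.37 (SE 0.14, adjusted p = 0.976, edgeR), and 2 of 5 mice lay below the lowest water mouse.

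Apob messenger RNA is edited in the mouse gut to give the short form apolipoprotein B48, which the expression values do not distinguish. Apob was 438, 449.6, 428, 351 and 410 FPKM with water, 386, 342, 345, 236 and 442 FPKM with low PAC, and 315, 322, 105, 340.0 and 300.2 FPKM with high PAC. All 5 high PAC mice were below all 5 water mice, and replicate 3 was far below the other high PAC mice. The log2 fold change was -0.68 with high PAC (SE 0.25, exact permutation p = 0.0079) and -0.30 with low PAC (SE 0.25, exact permutation p = 0.111). The adjusted p were 0.266 and 0.976 in edgeR. Without high PAC replicate 3 the log2 fold change was -0.43 (unadjusted p = 0.00781, adjusted p = 0.334, edgeR), and without low PAC replicate 4 the value with low PAC was -0.19.

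The C apolipoproteins control how fast lipoprotein lipase clears the particle, which apolipoprotein C-II activates and apolipoprotein C-III restrains. Apoc2 was 47.6, 33.4, 39.9, 59.4 and 72.4 FPKM with water, 26.2, 26.7, 53.1, 35.9 and 50.4 FPKM with low PAC, and 29.3, 34.3, 35.6, 34.3 and 30.3 FPKM with high PAC. Apoc3 was 75.6, 40.6, 75.9, 78.6 and 112 FPKM with water, 37.5, 25.3, 56.5, 52.5 and 62.2 FPKM with low PAC, and 42.5, 67.2, 65.1, 37.0 and 52.5 FPKM with high PAC. Both genes had water replicate 2 as the lowest and replicate 5 as the highest water mouse, as Apoa4 did, and their groups overlapped. Apoc2 had a log2 fold change of -0.72 with high PAC (SE 0.21, adjusted p = 0.202) and -0.48 with low PAC (SE 0.21, adjusted p = 0.976, edgeR). Apoc3 differed by -0.62 with high PAC (SE 0.26, adjusted p = 0.292) and by -0.75 with low PAC (SE 0.26, adjusted p = 0.976, edgeR), the only one of the 5 apolipoproteins whose estimate was larger in size with low PAC. The exact permutation p of Apoc2 was 0.0317 with high PAC and 0.214 with low PAC, and that of Apoc3 was 0.111 and 0.0794. Apoc2 (chromosome 7, 19671579 to 19677941, minus strand) shares 79.5% of its exonic bases with the same-strand gene Gm44805, which was listed in no mouse, so how reads of the shared bases were assigned is uncertain.

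Of the triglyceride-forming enzymes, Mogat2 makes diacylglycerol from monoacylglycerol, and Dgat1 and Dgat2 are unrelated enzymes that both add the last acyl chain. Mogat2 was 145, 118, 134, 131 and 126 FPKM with water, 116, 113, 119, 113 and 118 FPKM with low PAC, and 114, 121, 92.5, 124 and 125 FPKM with high PAC. The low PAC mice lay within a highest over lowest ratio of 1.05, and 4 of them were below every water mouse. Mogat2 had a log2 fold change of -0.28 with high PAC (SE 0.09, adjusted p = 0.232) and -0.24 with low PAC (SE 0.09, adjusted p = 0.976, edgeR), with exact permutation p of 0.0635 and 0.0159. Without high PAC replicate 3 the value with high PAC was -0.17 (unadjusted p = 0.0161, adjusted p = 0.374, edgeR).

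Dgat1 was 188, 134, 179, 191 and 189 FPKM with water, 140, 125, 159, 167 and 159 FPKM with low PAC, and 148, 165, 115, 132 and 157 FPKM with high PAC. All treated mice lay below the 4 highest water mice, and water replicate 2 lay among them. Against water, Dgat1 differed by -0.39 (log2) with high PAC (SE 0.12, adjusted p = 0.211) and -0.29 with low PAC (SE 0.12, adjusted p = 0.976, edgeR), and the exact permutation p was 0.0714 and 0.127. Dgat1 lies on chromosome 15, 76502015 to 76511953, minus strand.

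Dgat2 was the exception among the enzymes. Its FPKM was 69.9, 58.0, 81.7, 100.5 and 66.1 with water, 104, 55.7, 103, 70.9 and 71.4 with low PAC, and 65.8, 89.0, 62.8, 53.9 and 133 with high PAC. The groups overlapped throughout, and the mice of 1 group differed by up to 2.46-fold. Against water, Dgat2 differed by 0.01 (log2) with high PAC (95% interval -0.49 to 0.51, adjusted p = 0.992) and 0.04 with low PAC (95% interval -0.46 to 0.54, adjusted p = 0.992, edgeR), intervals that hold the values of Mogat2 and Dgat1. The sign of the Dgat2 value with high PAC was not stable, as it was -0.04 on log2 CPM. Dgat2 (99153658 to 99182719) and Mogat2 (99219084 to 99238619) are neighbours on the minus strand of chromosome 7, 36.4 kb apart.

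Mttp, whose loss stops chylomicron assembly, was 356, 312, 399.8, 377 and 392 FPKM with water, 295, 261, 298, 239 and 378 FPKM with low PAC, and 261, 311, 166, 306 and 289.7 FPKM with high PAC. All 5 high PAC mice were below all 5 water mice, though the gap was narrow, at 311.41 FPKM in the highest high PAC mouse and 311.73 FPKM in the lowest water mouse. Mttp differed from water by -0.55 (log2) with high PAC (SE 0.16, 1.46-fold lower, exact permutation p = 0.0079) and -0.38 with low PAC (SE 0.16, exact permutation p = 0.0476). The adjusted p were 0.201 and 0.976 in edgeR. Without high PAC replicate 3 it was -0.38 with high PAC (unadjusted p = 0.00616, adjusted p = 0.325, edgeR). Mttp lies on chromosome 3, 138089854 to 138144968, minus strand, and shares 7.4% of its exonic bases with Trmt10a on the opposite strand.

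Sar1b (chromosome 11, 51763687 to 51791925, plus strand) was at 120.0 ± 7.92 FPKM with water, 114 ± 8.89 FPKM with low PAC and 118 ± 8.14 FPKM with high PAC (SD, n = 5 each). Its log2 fold change was -0.11 with high PAC (95% interval -0.27 to 0.04, adjusted p = 0.448) and -0.13 with low PAC (95% interval -0.28 to 0.03, adjusted p = 0.976, edgeR). Without water replicate 3 these values were -0.07 and -0.08. Its close relative Sar1a, which is thought to do the same in most tissues, was 27.1 ± 0.695 FPKM with water and 31.5 ± 2.39 FPKM with high PAC (log2 fold change 0.12, adjusted p = 0.381, edgeR; exact permutation p = 0.0079).

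**Figure D2:**
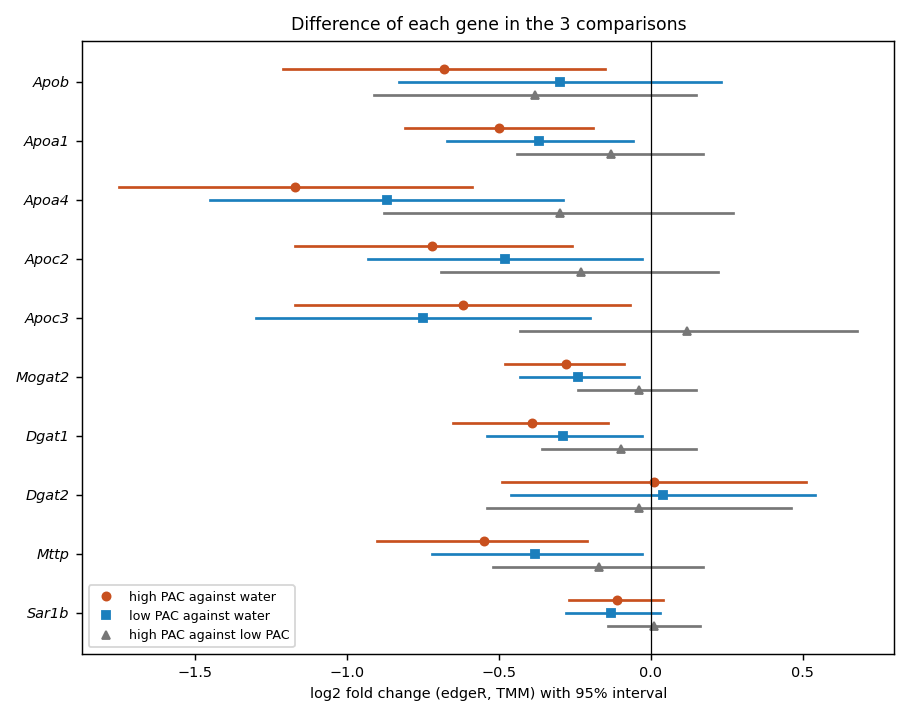
edgeR log2 fold change of each gene with its 95% interval for high PAC against water (circles), low PAC against water (squares) and high PAC against low PAC (triangles). Values against water lie below 0 for 9 of the 10 genes, with Dgat2 at 0.01 and 0.04, and every interval of high PAC against low PAC includes 0.

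Set side by side, 0 of the 10 genes had an adjusted p under 0.05 with high PAC against water in edgeR, where 0.0139% of all 14386 genes did. At an unadjusted p under 0.05, 8 of the 10 were lower and 0 higher, against 10.4% of all genes lower and 4.37% higher. These 8 were the 5 apolipoproteins, Mogat2, Dgat1 and Mttp. By the exact permutation test, 5 were lower at p under 0.05 (3.23% of all genes) and 0 higher (14.2% of all genes). The groups did not overlap for 2 lower genes (0.646% of all genes) and 0 higher ones (3.99%). The log2 fold change was below 0 for 9 of the 10 genes (49.5% of all genes), its median over the 10 was -0.52, and the median over all genes tested was 0.00. The members of the set share pathway and, in part, position on chromosome 9, so they are not independent of each other. Without high PAC replicate 3, 8 genes were lower at an unadjusted p under 0.05 (5.62% of all genes) and 4 at an exact permutation p under 0.05 (2.39% of all genes). With upper-quartile in place of TMM scaling the same count was 8, whereas the split over all genes turned from 1500 lower and 628 higher to 816 lower and 1505 higher. DESeq2 gave Apoa4 an adjusted p of 0.00497 and Apoa1 one of 0.0388, with 1.67% of the 7762 genes that kept an adjusted p under its own filter below 0.05.

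With low PAC against water, 0 of the 10 genes had an adjusted p under 0.05, as did 0% of all genes, and the lowest adjusted p of any gene was 0.976 (edgeR; DESeq2 gave 0 of the 10 and 0.0113% of all genes). At an unadjusted p under 0.05, 7 of the 10 were lower and 0 higher (2.21% of all genes lower, 1.4% higher), namely the 8 genes above less Apob. The exact permutation p was under 0.05 for Mogat2 and Mttp, both lower (1.27% of all genes lower, 3.48% higher), and 0 genes were lower or higher without overlap (0.111% and 0.494% of all genes). The log2 fold change was below 0 for 9 of the 10 genes (54.5% of all genes), with a median of -0.33 against -0.01 over all genes. The count of 7 depended on single mice. It was 3 without water replicate 1, low PAC replicate 1 or low PAC replicate 2, where 1.38%, 1.49% and 2.13% of all genes were lower, and 4 without water replicate 4 or 5, where 2.46% and 2.39% were. Both comparisons use the same 5 water mice, so a high value in a water mouse lowers both estimates at once.

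High PAC and low PAC were also compared directly, since the mice had the same dose and schedule and the preparations differed in polymer size. Of the 10 genes, 0 had an adjusted p under 0.05 (0% of all genes), and at an unadjusted p under 0.05 in edgeR 0 were lower (2.05% of all genes) and 0 higher (1.84%). The exact permutation test gave 0 lower and 0 higher (0.799% and 3.7% of all genes), and 0 lower and 0 higher genes had groups without overlap (0.0904% and 0.646%). The log2 fold change was below 0 for 8 of the 10 genes (48.6% of all genes), with a median of -0.12 against 0.00 over all genes. The difference was -0.30 for Apoa4 (95% interval -0.88 to 0.27), -0.38 for Apob (95% interval -0.91 to 0.15), -0.17 for Mttp (95% interval -0.52 to 0.17) and 0.12 for Apoc3 (95% interval -0.43 to 0.68), with adjusted p of 0.896, 0.896, 0.896 and 0.948 (edgeR). In the fit that left out high PAC replicate 3, the same differences were -0.43, -0.15, -0.03 and 0.06. With each mouse left out in turn Apoa4 ranged from -0.44 to -0.10, the latter without low PAC replicate 5, Apob from -0.49 to -0.15 and Mttp from -0.24 to -0.03. The Apob interval holds its difference between high PAC and water, so the preparations were not shown to act alike. The intervals were narrowest for Sar1b (-0.14 to 0.16) and Mogat2 (-0.24 to 0.15).

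**Figure D3:**
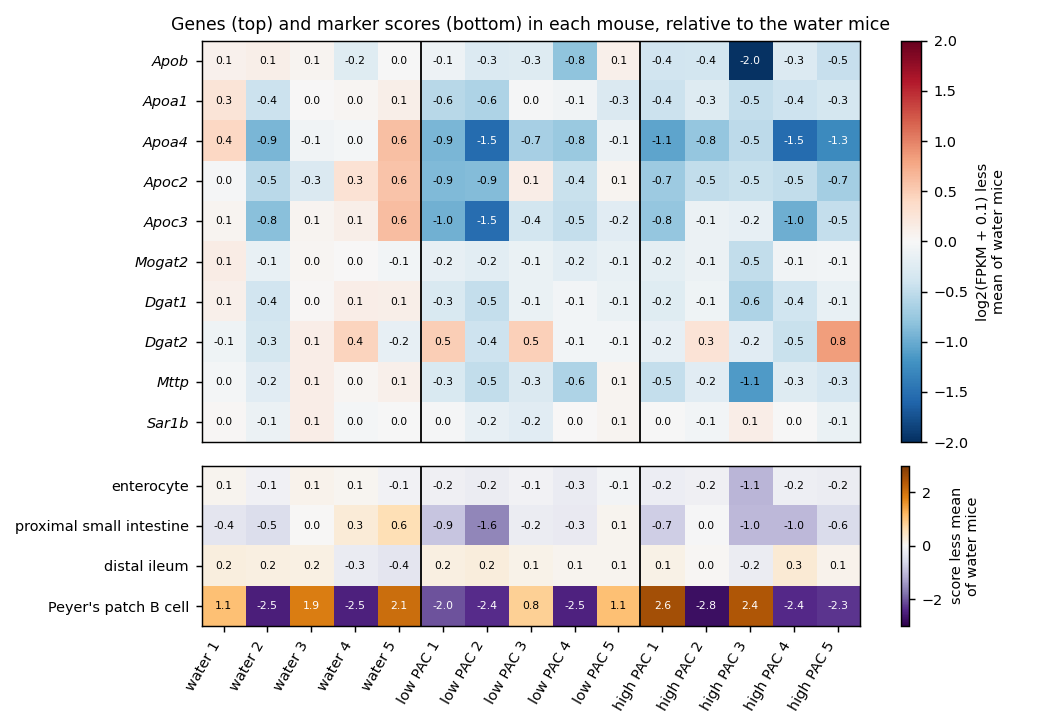
Difference of each gene in each mouse from the mean of the water mice on log2(FPKM + 0.1), above the same for 4 marker scores (mean centred log2(FPKM + 0.1) of each marker list), with black lines between the water, low PAC and high PAC groups. Water replicate 2 and low PAC replicate 2 are low for Apoa4 and Apoc3, high PAC replicate 3 is low for Apob, Mttp and the enterocyte score, and the B cell score swings between mice of every group.

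Other genes of the pathway were taken from 6 lists of 79 genes, of which 74 were tested. Of these, 0 had an adjusted p under 0.05 in any of the 3 comparisons. At an unadjusted p under 0.05, 28 were lower and 0 higher with high PAC, 7 were lower and 0 higher with low PAC, and 2 were lower and 0 higher with high PAC against low PAC, where 10.4%, 2.21% and 2.05% of all genes were lower. The exact permutation test gave 12 lower and 2 higher (Gpat4 and Sar1a) with high PAC, where 3.23% and 14.2% of all genes were lower and higher. It gave 7 lower and 0 higher with low PAC (1.27% and 3.48% of all genes), and 1 lower and 1 higher, again Sar1a, between high and low PAC (0.799% and 3.7%). The median log2 fold changes were -0.13, -0.08 and -0.08. In the fit without high PAC replicate 3, 14 of the 75 genes then tested were lower with high PAC (5.62% of all genes), with a median of -0.07. Up to 3 genes per list with the largest differences at an unadjusted p under 0.05 are named.

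The list of COPII coat and transport genes, the longest, had 12 of 21 genes lower with high PAC and 4 of 21 with low PAC (10.4% and 2.21% of all genes). The medians were -0.19 and -0.10. It had 7 of 21 lower with high PAC without replicate 3 of that group (5.62% of all genes). Sec24d, a cargo-selecting coat subunit, was 42.9 ± 2.55 FPKM with water, 35.0 ± 3.38 with low PAC and 31.1 ± 4.52 with high PAC (SD, n = 5). Its log2 fold change with high PAC was -0.56 (SE 0.10) with an adjusted p of 0.0875 in edgeR, the lowest of the 74 genes. Sec24a (-0.36) and Sec23a (-0.35), further coat subunits, had adjusted p of 0.183 and 0.238 (edgeR). The exact permutation p of Sec24d, Sec24a and Sec23a was 0.0079, 0.0079 and 0.0238. Whether these coat subunits differed more than Sar1b, which starts the coat, was not tested.

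The lipid droplet and lumenal loading list had 6 of 15 genes lower with high PAC and 2 of 15 with low PAC (10.4% and 2.21% of all genes). Among them were A1cf, a cofactor of Apob editing (-0.55 with high PAC), the droplet coat protein Plin3 (-0.38) and Tm6sf2, which takes part in lipid loading (-0.30). Their adjusted p were 0.231, 0.190 and 0.271 (edgeR) and their exact permutation p 0.0397, 0.0159 and 0.0556. Counts here and in the next paragraph include high PAC replicate 3, without which the pathway lists together had 14 of 75 genes lower. In glycerolipid synthesis 3 of 11 genes were lower with high PAC (10.4% of all genes). These were Soat2, which esterifies cholesterol (-0.51), the phosphatidate phosphatase Lpin2 (-0.42) and the glycerol phosphate acyltransferase Gpat3 (-0.39). Their adjusted p were 0.279, 0.247 and 0.180 (edgeR) and their exact permutation p 0.0952, 0.0556 and 0.0079. Mogat1 of this list was too low to be tested. Among fatty acid handling genes, Acsl5 (-0.42), which activates fatty acids, and the transport protein Slc27a4 (-0.33) were the 2 of 8 that were lower with high PAC (10.4% of all genes). Their adjusted p were 0.281 and 0.304 (edgeR) and their exact permutation p 0.0952 and 0.0873. The log2 fold changes of this list ran from -0.42 to 0.50, with 5 of 8 below 0 and a median of -0.03.

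Of the other apolipoproteins only Apol7a (-0.55, adjusted p = 0.237, edgeR; exact permutation p = 0.0476) was lower with high PAC at an unadjusted p under 0.05, of 4 tested (10.4% of all genes). Apoa2, Apoa5, Apoc4 and Apom did not pass the filter, so of the chromosome 9 cluster all genes but Apoa5 were tested. Of 15 transcription regulators, 4 were lower with high PAC (10.4% of all genes). The 3 with the largest differences were Creb3l3 (-0.46), a membrane-bound factor known to drive Apoa4, Hnf4g (-0.40), an HNF4 receptor of the gut, and the coactivator Ppargc1a (-0.35). Their adjusted p were 0.291, 0.275 and 0.299 (edgeR) and their exact permutation p 0.127, 0.0159 and 0.0794. With low PAC 0 of the 15 were lower (2.21% of all genes). The motif shown above for Apoa4 is of the HNF4 type, and whether the levels of these factors bear on Apoa4 was not tested.

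Markers of the cells that make these transcripts also differed between the groups. Of 13 enterocyte markers, 11 were lower at an unadjusted p under 0.05 with high PAC (10.4% of all genes; median log2 fold change -0.38), and 0 with low PAC (2.21% of all genes), where all 13 were below 0 (median -0.19; edgeR, lowest adjusted p 0.193 and 0.976). The summed FPKM of the list was 9343 to 11242 with water, 8585 to 9704 with low PAC and 5194 to 9390 with high PAC, and on the log2 scale the sum differed from water by -0.35 with high PAC and -0.16 with low PAC (exact permutation p = 0.0159 and 0.0714). The enterocyte score was 0.36 lower with high PAC (two-sided exact permutation p = 0.0079) and 0.17 lower with low PAC (exact permutation p = 0.0397). Leaving out high PAC replicate 3, the score was 0.19 lower with high PAC (exact permutation p = 0.0238), and 9 of the 13 markers were lower at an unadjusted p under 0.05 (5.62% of all genes; median -0.20, edgeR). In these bulk samples, fewer enterocytes and less RNA of these genes per enterocyte cannot be told apart.

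Markers of position along the gut were compared in the same way. The score of 12 proximal markers was 0.67 lower with high PAC (exact permutation p = 0.0397; 0.59 lower, p = 0.0952, without replicate 3) and 0.57 lower with low PAC (exact permutation p = 0.167), while that of 12 distal markers was 0.07 and 0.15 higher (exact permutation p = 0.683 and 0.381). Of the 12 proximal markers, 4 were lower and 0 higher at an unadjusted p under 0.05 in edgeR with high PAC (9 below 0, median log2 fold change -0.57; 4 lower and a median of -0.52 without high PAC replicate 3), and 1 was lower and 0 higher with low PAC (10 below 0, median -0.46). Of all genes 10.4% were lower and 4.37% higher with high PAC by that rule, 5.62% were lower without replicate 3, and 2.21% were lower and 1.4% higher with low PAC. Of the 12 distal markers, 1 was lower and 1 higher with high PAC (7 below 0, median -0.03), and 0 were lower and 1 higher with low PAC (3 below 0, median 0.08). Gata4, the factor that defines the proximal intestine, was 4.58, 1.69, 4.04, 12.5 and 12.7 FPKM with water, 0.48, 0.91, 1.97, 6.23 and 4.19 FPKM with low PAC, and 0.58, 4.23, 0.75, 0.72 and 0.39 FPKM with high PAC. Its log2 fold change with high PAC was -2.48 (adjusted p = 0.211, edgeR). Fabp6 was 7010 ± 657 FPKM with low PAC and 7790 ± 1750 FPKM with high PAC, and Slc10a2 was 254 ± 65.6 and 254 ± 66.3 FPKM. Summed Peyer's patch B cell markers ranged from 6.66 to 260 FPKM over the mice, and their score differed from water by -0.49 with high PAC and -1.0 with low PAC (exact permutation p = 0.968 and 0.397). Smooth muscle, mesothelium and adipocyte scores were 0.66, 1.07 and 0.50 above water with high PAC (exact permutation p = 0.198, 0.159 and 0.524) and 0.52, 0.90 and 0.80 above water with low PAC (exact permutation p = 0.302, 0.222 and 0.183). Macrophage and pancreas and liver scores differed by -0.01 and 0.13 with high PAC (exact permutation p = 0.865 and 0.183) and by 0.06 and 0.04 with low PAC (exact permutation p = 0.603 and 0.667). The part of tissue position and of the other cell types in the group differences of the 10 genes was not tested.

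When each gene was divided by the summed enterocyte marker FPKM of the same mouse, a scale chosen after seeing the data, 0 of the 10 genes were lower at an exact permutation p under 0.05 in either comparison with water. The division moves every gene of a mouse by the same amount. Of all 14386 genes, 0.139% were lower and 52.7% higher with high PAC on this scale, and 0.111% and 17.3% with low PAC. Between high and low PAC 0 of the 10 were lower (0.0834% of all genes) and 1, Mogat2, was higher (8.53%). On this scale Apoa4 was -0.68 (log2) with high PAC (exact permutation p = 0.135) and -0.64 with low PAC (exact permutation p = 0.111), Apob was -0.35 (exact permutation p = 0.0635) with high PAC and Mttp -0.14 (exact permutation p = 0.0873). Sar1b was 0.33 higher with high PAC (exact permutation p = 0.0317), the 1 gene of the 10 that was. Without high PAC replicate 3, whose enterocyte markers were lowest, Apoa4 was -0.97 on this scale (exact permutation p = 0.0238), and it was the 1 gene of the 10 with a p under 0.05 and a lower level (0.236% of all genes lower, 35.9% higher). Sar1b was then 0.14 higher (exact permutation p = 0.0476), Apob was -0.19 (exact permutation p = 0.127) and Mttp -0.14 (exact permutation p = 0.175).

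Variation between mice of the same group was compared next. After the group means were subtracted from log2(FPKM + 0.1), all 45 gene pairs were compared over the 15 mice, with p from 100000 permutations of the mice within their groups and adjusted over the 45 pairs. Of these pairs, 35 had an r above 0, and 3 had an adjusted p under 0.05. Apoa4 and Apoc3, neighbours on chromosome 9, had the highest correlation (Pearson r = 0.91, permutation p = 7e-05, adjusted p = 0.00315; Spearman rho = 0.88, permutation p = 0.00028, adjusted p = 0.0126). The other pairs under that threshold were Apoa1 and Dgat1 (r = 0.83, permutation p = 0.00014, adjusted p = 0.00315; rho = 0.80, permutation p = 0.00059, adjusted p = 0.0133) and Apoc2 and Apoc3 (r = 0.80, permutation p = 0.00151, adjusted p = 0.0226; rho = 0.79, permutation p = 0.0019, adjusted p = 0.0285). When the 2 mice most distant from the first gene's median were left out, r was 0.82, 0.64 and 0.75, and without high PAC replicate 3 it was 0.91, 0.88 and 0.80. Without that mouse the highest r was that of Apoc3 and Dgat1, at 0.92. Over all 15 mice this pair had an r of 0.66 (permutation p = 0.0169, adjusted p = 0.0803), which was 0.30 without the 2 farthest mice.

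Apob and Mttp formed another pair with r = 0.86 (permutation p = 0.0086, adjusted p = 0.0553; rho = 0.66, permutation p = 0.0228, adjusted p = 0.147), which was 0.53 without the 2 farthest mice and 0.60 without high PAC replicate 3. Mogat2 had an r of 0.79 with Mttp and 0.75 with Apob (permutation p = 0.00547 and 0.0572, adjusted p = 0.0553 and 0.161; rho = 0.62 and 0.58, permutation p = 0.0179 and 0.0266), values that were 0.41 and 0.32 without the 2 farthest mice and 0.45 and 0.13 without high PAC replicate 3. All 3 of these r were thus smaller without that mouse. Dgat1 had an r of 0.66 with Mogat2, 0.59 with Mttp and 0.53 with Apoa4 (permutation p = 0.0178, 0.0273 and 0.0629, adjusted p = 0.0803, 0.102 and 0.166; rho = 0.41, 0.40 and 0.42, permutation p = 0.172, 0.177 and 0.145). Those r were 0.19, 0.20 and 0.05 without the 2 farthest mice and 0.50, 0.38 and 0.85 without high PAC replicate 3. Dgat2 had no r above 0.55 with any other gene of the set. Apoa1 and Apoa4, although on the same 43.3 kb, had an r of 0.66 (permutation p = 0.0255, adjusted p = 0.102; rho = 0.56, permutation p = 0.0539, adjusted p = 0.187) that was 0.27 without the 2 farthest mice and 0.75 without high PAC replicate 3.

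**Figure D4:**
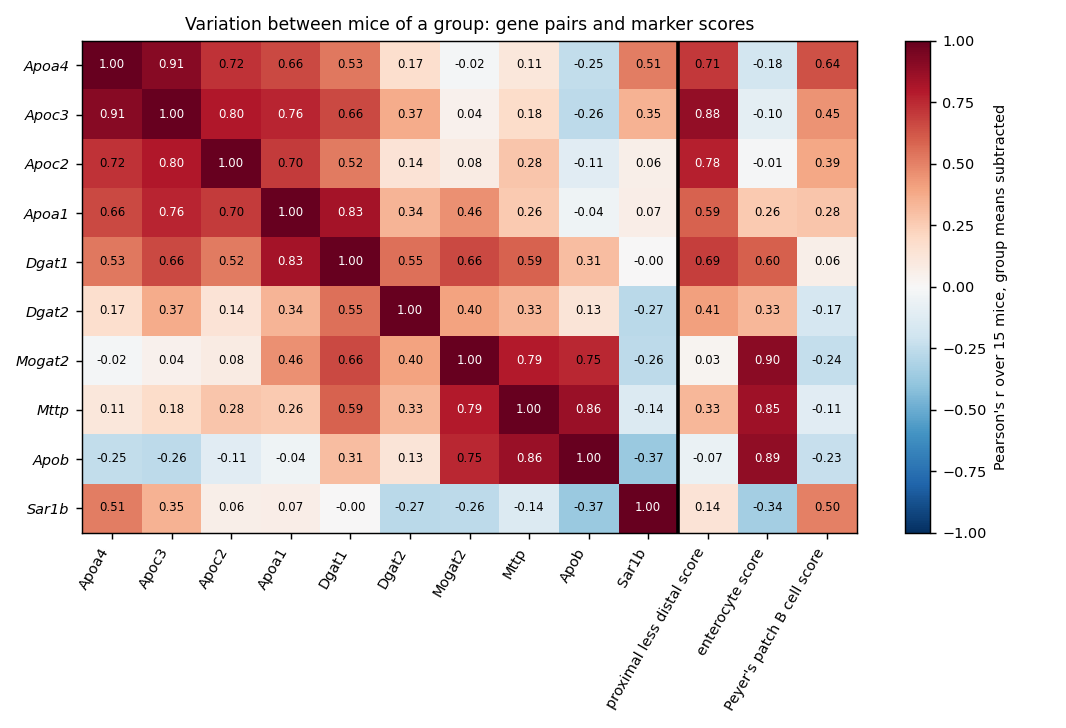
Pearson's r over 15 mice with group means subtracted, for all pairs of the 10 genes (left of the line) and for each gene against 3 marker scores (right of the line). Apoa4, Apoc3, Apoc2, Apoa1 and Dgat1 have r of 0.52 to 0.91 with each other, 3 of them with an adjusted p under 0.05. Without the 2 mice farthest from the first gene's median these r were 0.05 to 0.82. Mogat2, Mttp and Apob have r of 0.75 to 0.86 with each other, none with an adjusted p under 0.05, which were 0.13 to 0.60 without high PAC replicate 3. Dgat1 also has r of 0.66 with Mogat2 and 0.59 with Mttp.

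The 10 genes were also set against 3 marker scores, with p adjusted over the 30 relations, 6 of which had an adjusted p under 0.05. Differences between these r were not tested. The score of proximal less distal markers went with Apoc3 (r = 0.88, permutation p = 1e-05, the smallest the permutations can give, adjusted p = 0.0003; rho = 0.89, permutation p = 1e-05, adjusted p = 0.0003). It also went with Apoc2 (r = 0.78, permutation p = 0.00568, adjusted p = 0.0341; rho = 0.73, permutation p = 0.0132, adjusted p = 0.0658) and Apoa4 (r = 0.71, permutation p = 0.00892, adjusted p = 0.0446; rho = 0.70, permutation p = 0.0121, adjusted p = 0.0658). Dgat1 had an r of 0.69 with this score (permutation p = 0.00508, adjusted p = 0.0341; rho = 0.71, permutation p = 0.00414, adjusted p = 0.031). When the 2 mice most distant from the gene's median were left out, these r were 0.82, 0.73, 0.52 and 0.79, and without high PAC replicate 3 they were 0.91, 0.78, 0.76 and 0.78.

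The enterocyte score went with Mogat2 (r = 0.90, permutation p = 0.00078, adjusted p = 0.0117; rho = 0.80, permutation p = 0.00118, adjusted p = 0.0177) and Mttp (r = 0.85, permutation p = 0.00188, adjusted p = 0.0188; rho = 0.73, permutation p = 0.00396, adjusted p = 0.031). Without the 2 farthest mice the r was 0.69 for Mogat2 and 0.76 for Mttp, and without high PAC replicate 3 it was 0.72 and 0.64. For Apob the r with the enterocyte score was 0.89 (permutation p = 0.0283, adjusted p = 0.0945; rho = 0.77, permutation p = 0.0172, adjusted p = 0.0738), 0.56 without the 2 farthest mice and 0.33 without high PAC replicate 3. Dgat1 had an r of 0.60 with the enterocyte score (permutation p = 0.025, adjusted p = 0.0939; rho = 0.36, permutation p = 0.211), which was 0.21 without the 2 farthest mice. Apoa4 had an r of -0.18 with the enterocyte score and Mttp an r of 0.33 with the position score (adjusted p = 0.781 and 0.384, permutation test). These r were 0.44 and 0.49 without high PAC replicate 3, and -0.45 and 0.34 without the 2 farthest mice. The r of the B cell score had an adjusted p under 0.05 with 0 of the 10 genes and was highest with Apoa4 (r = 0.64, permutation p = 0.0142, adjusted p = 0.061; rho = 0.60, permutation p = 0.0277, adjusted p = 0.104), at 0.58 without the 2 farthest mice. No gene of the set is in these marker lists, but all values come from the same 15 libraries.

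**Figure D5:**
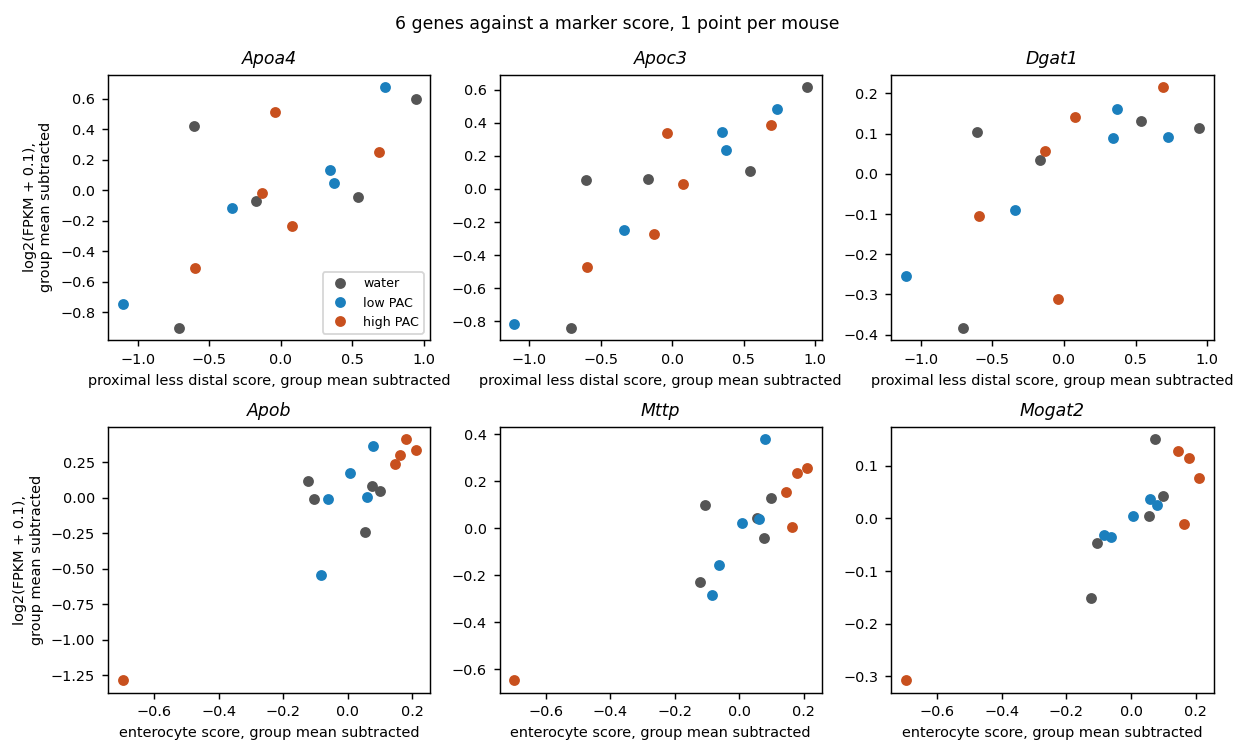
Log2(FPKM + 0.1) against a marker score in each of the 15 mice with group means subtracted, for Apoa4, Apoc3 and Dgat1 against the proximal less distal score (top) and Apob, Mttp and Mogat2 against the enterocyte score (bottom). The top panels have points of all groups along the slope (r = 0.71, 0.88 and 0.69), whereas high PAC replicate 3 lies alone at the lower left of the bottom panels (r = 0.89, 0.85 and 0.90).

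Genes with the most similar variation were sought among the 8717 genes with a mean of at least 5 FPKM, by Pearson's r over the 15 mice with group means subtracted, as a description without a test. For Apoa4 they were Apoc3 (0.91), Marc2 (0.87), Khk (0.87), Snx20 (0.86) and Tmem86a (0.86). Khk, ketohexokinase of fructose metabolism, is also one of the 12 proximal markers. For Apob they were Fam8a1 (0.96), Ubxn2a (0.96), Slc26a2 (0.95), Ppp6r3 (0.95) and Ahcyl2 (0.95), none of which was among those of Apoa4. Leaving out high PAC replicate 3, these 5 had an r of 0.77 to 0.84 with Apob and ranked 37th to 125th, so the order rests on that mouse. Apoc3 and Marc2 were also the nearest of Apoa4 without it (0.91 and 0.90), whereas Khk, Snx20 and Tmem86a then ranked 21st, 25th and 26th (0.86, 0.85 and 0.85). For Dgat2 they included Mgll (0.93), the monoacylglycerol lipase, Pcx (0.92), pyruvate carboxylase, Gbe1 (0.91), the glycogen branching enzyme, and Ctsd (0.91).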

How the data were processed

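The members and the pathway and marker lists were chosen with earlier results of these data known. Per the labels and the study's methods, paired-end BGISEQ-500 reads were cleaned with SOAPnuke and mapped to mm10. The methods name Bowtie2 and the submitters' processing notes HISAT and DESeq2, and the counting tool is not given in the sources used here. For each mouse the authors deposited an expected count per gene, an estimate of fragments that is not normalized and is exactly whole, with no tolerance, for 88.6% to 89.5% of the genes listed in a mouse. The authors also deposited FPKM with genes under 0.01 not listed (taken as 0 here) and another value, the average transcript length, which differed between mice for some genes (Apoc2, 669 to 726 bases). Values from counts with TMM scaling and from FPKM differed also where the length was constant. Apoa1 (988 bases in every mouse) was -0.50 in edgeR and -0.39 on log2(FPKM + 0.1) with high PAC against water. In that comparison 10.4% of all genes were lower and 4.37% higher in edgeR at an unadjusted p under 0.05. By the exact permutation test on FPKM 3.23% were lower and 14.2% higher. Depth was 15963086 to 17903886 expected counts per mouse.

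After rounding, the expected counts went into the quasi-likelihood test of edgeR 4.0.16 in R 4.3.3 with TMM scaling, in 1 model of all 15 mice over the 14386 genes kept by its low-count filter. On simulated data for high PAC against water (14315 genes, 200 changed) it called 81 of 100 genes changed 2-fold, 98 of 100 changed 4-fold and 7 unchanged genes. Permutation tests used log2(FPKM + 0.1) (numpy 2.4.6, scipy 1.17.1). A marker score averages centred log2(FPKM + 0.1) over the genes of its list. The 10 members are named throughout, up to 3 genes per pathway list at an unadjusted p under 0.05 in high PAC against water, the 5 most similar genes of Apoa4, Apob and Dgat2 (1 of those of Dgat2 is not reported here), and Gata4, Fabp6 and Slc10a2. Sar1a, Lrp2 and the pancreas and liver markers were named after their values were seen, and genes not tested or overlapping a member are named as such. Alternatives were DESeq2 1.42.0, limma 3.58.1, other scalings and filters, a replicate block, each mouse left out and a scale per enterocyte marker. Coordinates are from GENCODE on GRCm38 (mm10). Mice of a group are separate animals per the labels.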

Additional observations from a re-analysis of the deposited data

Results flagged for a closer look

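For each of the 10 genes, the FPKM of the 5 mice of each group were examined for a mouse far from the rest, 30 groups of values in all, of which chance alone flags about 1 in 20. In 2 of them a mouse stood apart. Apob was 105 FPKM in high PAC replicate 3, against 300.2 to 340.0 FPKM in the other high PAC mice, a gap of 0.831 of the range of the group. The same mouse had the lowest summed enterocyte markers, 5194 FPKM. Dgat1 was 134 FPKM in water replicate 2, against 179 to 191 FPKM in the other water mice, a gap of 0.785 of the range. This mouse was the lowest water mouse for 9 of the 10 genes, all but Apob.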

How the results depend on the processing

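The count of members called at an adjusted p under 0.05 was 0 in each comparison in edgeR, and 2 with DESeq2 for high PAC against water (Apoa4 and Apoa1). The count lower at an unadjusted p under 0.05 with high PAC was 7 to 8 under every alternative and without each mouse in turn. Over the edgeR and limma settings, 3.75% (limma on log2(FPKM + 0.1)) to 11.8% (without high PAC replicate 4) of all genes were lower. With low PAC it was 3 in limma at either pseudocount (0.823% and 0.838% of all genes). It was 3 to 7 without each mouse in turn (1.27% to 3.33% of all genes), and the cause was not tested. The exact permutation count with high PAC was 4 without high PAC replicate 3 (2.39% of all genes), and per summed enterocyte marker FPKM it was 0 with either PAC (0.139% of all genes with high PAC and 0.111% with low PAC).

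Directions turned for some values. The scale per enterocyte marker raises every gene by the same amount within a comparison. The summed markers differed by -0.35 (log2) with high PAC, by -0.16 with low PAC and by -0.20 between the PAC groups. Negative values smaller than that in size turn positive on this scale by construction. For high PAC against water this was Dgat2 on log2 CPM (-0.04) and, per enterocyte marker, Mogat2 (0.16), Dgat1 (0.05) and Sar1b (0.33), of which Mogat2 and Dgat1 were among the 8 lower genes. For low PAC it was Sar1b per enterocyte marker (0.08). For high PAC against low PAC, per enterocyte marker, it was Apoa1 (0.12), Apoc2 (0.03), Mogat2 (0.18, exact permutation p = 0.0159), Dgat1 (0.12), Dgat2 (0.16) and Mttp (0.04). Without each mouse in turn Dgat2 ranged from -0.24 to 0.13 with high PAC, from -0.06 to 0.17 with low PAC and from -0.29 to 0.07 between the PAC groups, where Apoc3 ranged from -0.02 to 0.24, Mogat2 from -0.08 to 0.04 and Sar1b from -0.02 to 0.04.

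The mice carry the numbers 1 to 5 in each group, but same-numbered mice did not deviate together (r of -0.143 to 0.285 for high PAC with water, -0.295 to 0.445 for low PAC with water and -0.234 to -0.104 for the PAC groups), so the numbers were not taken as pairs. With the replicate block, 8 members were lower at an unadjusted p under 0.05 with high PAC (8.88% of all genes). With low PAC 6 were lower (1.95% of all genes), and 0 had an adjusted p under 0.05 with either PAC (edgeR).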
